A study of Mus musculus with 16 samples.

Results

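The genes described here are 7 genes of cholesterol synthesis: 6 enzymes (Hmgcs1, Idi1, Fdps, Sqle, Lss and Cyp51) and Srebf2, which encodes a transcription factor that drives them. They were found by name among the non-control probes of a mouse whole-genome array, which gave 18 probes of 41174 and 7 gene names of 28632. Liver RNA was hybridised in 2 colours on 16 arrays, which form 8 dye-swapped experiments of 2 arrays, and each experiment counts as 1 replicate. In experiments 1 and 4, Nrf2-/- liver (Nrf2 KO, lacking the gene Nfe2l2) was set against wild type. In experiments 2 and 5, Atg7F/F:Mx1-Cre liver (Atg7 cKO) was set against wild type. In experiments 3 and 6, Atg7F/F:Mx1-Cre:Nrf2-/- liver (double knockout) was set against wild type, and in experiments 7 and 8 it was set directly against Atg7 cKO. All mice received pIpC, an inducer of interferon that switches on Cre from the Mx1 promoter, at 8 weeks of age per the labels, and livers were taken 4 weeks later. Mx1-Cre acts in hepatocytes and also in other interferon-responsive cells, among them blood cells, so Atg7 loss in these mice is not limited to hepatocytes. The Nrf2 deletion is in every cell, and wild-type and Nrf2 KO mice share the pIpC treatment with the others. The labels give no animal numbers, so p-values measure the spread between experiments, part of which may be technical.

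Liver makes much of the body's cholesterol, from acetyl-CoA through mevalonate, isoprenoid diphosphates, squalene and lanosterol. The protein made from Srebf2, SREBP2, is held in the endoplasmic reticulum membrane together with SCAP and INSIG proteins while sterols are plentiful. When sterols fall it moves to the Golgi apparatus, is cut by proteases, and its released part enters the nucleus and activates the enzyme genes of the pathway, and its own gene, through sterol response elements. Its partners at these promoters are commonly NF-Y, which binds the CCAAT box, and Sp1. The enzymes are therefore known to move together in liver when sterol supply changes, for example with feeding.

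Promoter sequences were at hand for 5 of the 7 genes, and are shown because those genes share this known regulator. Each line gives the 170 bases just upstream of the RefSeq gene start (GRCm38.p6), 5′ to 3′ on the gene's strand. Capitals mark matches, on either strand, to the sterol response core TCACNNCA and to the CCAAT box. The windows are chr13:119690181-119690350 (+) for Hmgcs1, chr13:8885436-8885605 (+) for Idi1, chr10:76531435-76531604 (+) for Lss, chr5:4104698-4104867 (-) for Cyp51 and chr15:82147099-82147268 (+) for Srebf2.
Hmgcs1: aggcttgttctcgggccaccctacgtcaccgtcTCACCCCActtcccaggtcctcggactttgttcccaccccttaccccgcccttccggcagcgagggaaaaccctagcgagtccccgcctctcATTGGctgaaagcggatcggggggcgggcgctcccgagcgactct
Idi1: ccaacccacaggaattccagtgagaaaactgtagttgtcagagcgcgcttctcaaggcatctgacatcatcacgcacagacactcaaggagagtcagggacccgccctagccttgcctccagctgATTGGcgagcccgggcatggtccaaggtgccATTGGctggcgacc
Lss: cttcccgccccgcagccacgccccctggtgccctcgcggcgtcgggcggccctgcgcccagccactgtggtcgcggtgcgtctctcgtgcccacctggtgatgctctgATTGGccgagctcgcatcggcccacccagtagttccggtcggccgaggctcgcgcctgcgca
Cyp51: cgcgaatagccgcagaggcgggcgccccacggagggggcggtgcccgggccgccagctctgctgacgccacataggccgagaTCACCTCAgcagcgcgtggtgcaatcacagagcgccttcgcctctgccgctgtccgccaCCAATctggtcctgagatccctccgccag
Srebf2: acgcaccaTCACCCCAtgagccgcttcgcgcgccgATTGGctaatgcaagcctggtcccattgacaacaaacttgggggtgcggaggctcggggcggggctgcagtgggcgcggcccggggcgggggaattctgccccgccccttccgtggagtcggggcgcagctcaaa
The motifs were searched in the 250 upstream bases, and the letters of the core were chosen with the sequences in view. TCACNNCA was found in 3 of the 5 windows (Hmgcs1, Cyp51 and Srebf2), and in 11.4% of all 32851 promoter windows. Hmgcs1 and Srebf2 carried the same 8 letters, TCACCCCA, beginning 137 and 162 bases upstream, and Cyp51 carried TCACCTCA beginning 88 bases upstream. Srebf2 held a further match, TCACGGCA on the opposite strand, farther upstream than the stretch shown. The longer form TCACNCCAC was in Hmgcs1 alone of the 5, and in 1.05% of all windows. CCAAT was in all 5 windows against 33.8% of all, and GGGCGG, a Sp1 box, in all 5 against 32.7%. TGACNNNGC, the core of the antioxidant response element that Nrf2 binds, was in 0 of the 5 windows against 10.2% of all. The longer form covers the same bases as the core in Hmgcs1, and no other matches in these 5 windows overlapped. These matches describe the letters in the windows and show no binding.

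Nearly all probes behind the 7 genes were detected, but not all were bright. The brightest Hmgcs1 probe had a mean log2 intensity of 11.91 and the brightest Lss probe 7.54, against 5.88 for an undetected Srebf2 probe. Of the 18 probes, 17 were kept, because 4 or more of the 24 channels of experiments 1 to 6 had them well above background, and 16 were so in all 24. The probe left out was a Srebf2 probe that was well above background in 0 of 24 channels. Each gene is represented by its brightest kept probe. On build mm9, as the files give it, these lie at chr13_random:114807-114866 (Hmgcs1), chr3:88898812-88898952 (Fdps), chr15:59162384-59162443 (Sqle), chr10:76015992-76016051 (Lss), chr5:4083236-4083295 (Cyp51) and chr15:82035695-82035754 (Srebf2). The files place the Idi1 probe on chr2:53553575-53553634, whereas RefSeq has the Idi1 gene on chromosome 13, so that position was not relied on and the probe keeps the name the files give it. The files do not say which exon or untranslated region a probe lies in.

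The targeted genes were low in the livers labelled as lacking them. The Nfe2l2 log2 ratio was -3.78 and -3.97 in Nrf2 KO livers, 1.26 and 1.13 in Atg7 cKO, and -3.31 and -4.10 with both genes deleted. Experiments 7 and 8 use the deposited ratios, processed otherwise than those of experiments 1 to 6, so sizes are not directly comparable. There Nfe2l2 had -6.31 and -6.68. Its call in Nrf2 KO (limma, adjusted p = 0.0264) was lost with median centring (adjusted p = 0.0586) at an almost equal ratio of -3.77, without the filter on dim probes (0.0655), with slide as a block (0.0523) and without experiment 1, 2, 4 or 5 (0.146 to 0.569). Atg7, whose probe need not lie in the deleted part, had -0.79 and -0.82 in Atg7 cKO, -0.73 in both double knockout experiments, -0.10 and 0.00 in Nrf2 KO, and -0.03 and 1.03 in experiments 7 and 8, where both channels carry the Atg7 deletion by their labels and the 2 experiments differ. Experiments 1 to 3 and 4 to 6 hold 1 experiment of each comparison with wild type and differ in sex-linked transcripts. The log2 signal of Xist was 5.75 to 5.78 in the knockout and 5.76 to 5.80 in the wild-type channels of experiments 1 to 3, and 10.87 to 11.34 in the knockout and 11.15 to 11.21 in the wild-type channels of experiments 4 to 6. Ddx3y, on the Y chromosome, ran the other way, with 7.67 to 7.88 in the knockout and 7.65 to 7.78 in the wild-type channels of experiments 1 to 3 and 5.75 to 5.80 and 5.78 to 5.81 in the knockout and wild-type channels of experiments 4 to 6. The sets are therefore also reported apart, and the part of this difference in the ratios was not tested. Of the hepatocyte markers, among them Alb and Ttr, 6 of 6 were well above background in all 24 channels. So were many markers of other cell types, among them Marco, Pecam1 and Col1a1, so detection alone cannot check the tissue label.

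None of the 6 enzymes Hmgcs1, Idi1, Fdps, Sqle, Lss and Cyp51 showed a change that passed the test in any of the 4 comparisons, and their ratios depended on the set of experiments. In experiments 1 to 3 the medians of the 6 enzymes were -0.88, -0.40 and -0.55 on the log2 scale, knockout over wild type. In experiments 4 to 6, which repeat the same 3 comparisons, they were 0.29, -0.16 and 0.35. In experiments 7 and 8, the direct comparison, they were -0.12 and 0.51, from the deposited ratios, which can differ in size. For example, Lss in experiment 1 had -0.97 in the deposited ratios and -0.60 in those used for experiments 1 to 6. The median over all genes tested stayed between -0.01 and 0.03 in each of the 8 experiments. The normalisation places that median near 0, so it cannot show whether all genes shifted.

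**Figure D1:**
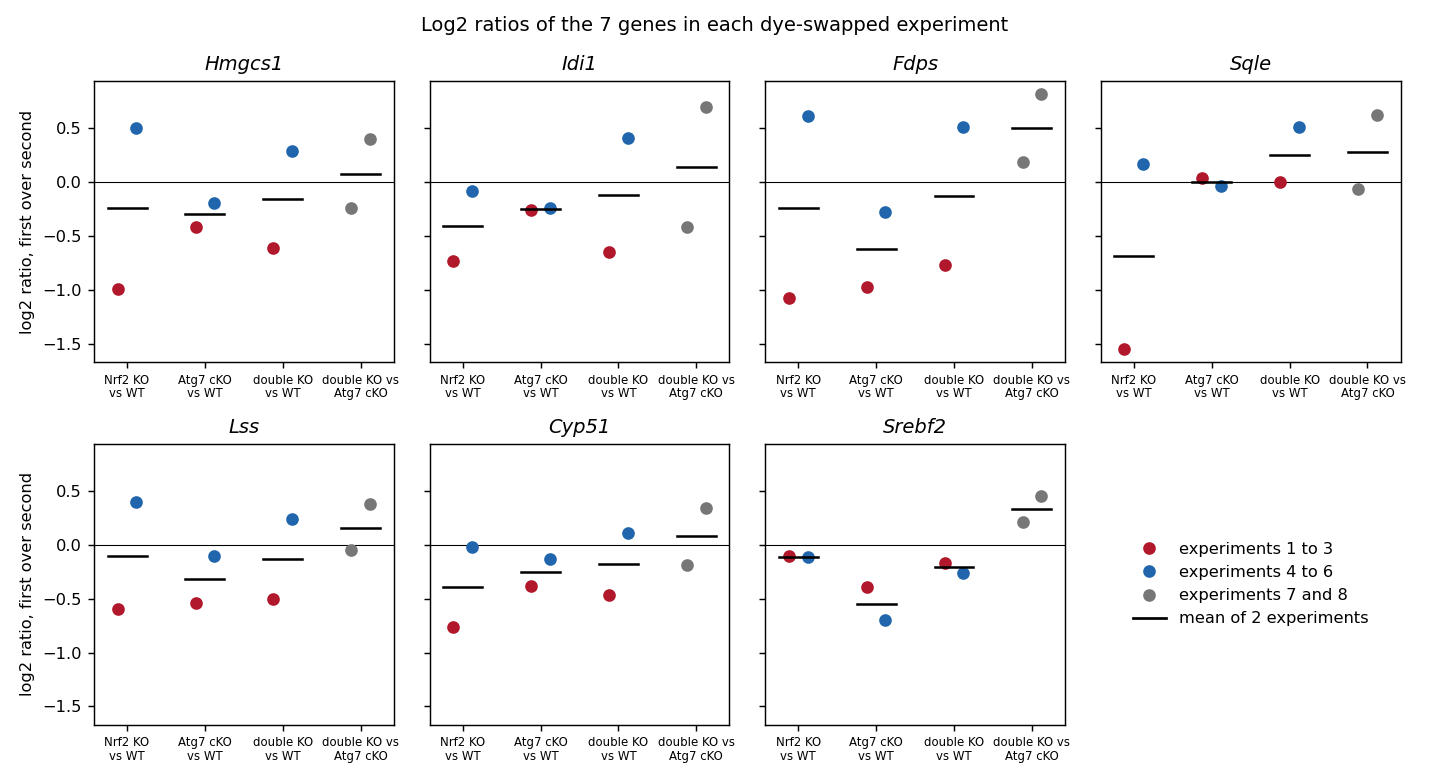
Log2 ratio (vertical axis) of each of the 7 genes in each of the 4 comparisons (horizontal axis), 1 panel per gene. Points are dye-swapped experiments, red for 1 to 3, blue for 4 to 6 and grey for 7 and 8, and bars are the means of the 2 experiments. Grey points are deposited ratios, processed otherwise than the red and blue points. For Hmgcs1, Idi1, Fdps, Lss and Cyp51 every blue point lies above every red point. The red and blue Srebf2 points overlap and are lowest in Atg7 cKO, at -0.39 and -0.70.

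Hmgcs1 encodes the synthase that makes HMG-CoA, early in the pathway. Its log2 ratio was -0.99 in experiment 1 and 0.50 in experiment 4 (Nrf2 KO over wild type), -0.42 and -0.19 in experiments 2 and 5 (Atg7 cKO), -0.61 and 0.29 in experiments 3 and 6 (double knockout), and -0.24 and 0.40 in experiments 7 and 8 (double knockout over Atg7 cKO). The means of 2 experiments were -0.24, -0.30, -0.16 and 0.08. The pair of experiments had opposite signs in 3 of the 4 comparisons, so these means lie between values of opposite sign.

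Idi1 encodes the isomerase of isopentenyl diphosphate, which supplies the building blocks of isoprenoids. It had -0.73 and -0.08 in Nrf2 KO, -0.26 and -0.24 in Atg7 cKO, -0.65 and 0.41 in double knockout liver, and -0.42 and 0.70 in the direct comparison. The Atg7 cKO experiments gave nearly the same value, and the double knockout experiments differed by more than 1 log2 unit.

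Fdps encodes farnesyl diphosphate synthase, at the branch from which sterols, dolichol and prenyl groups are made. It had -1.08 and 0.61 in Nrf2 KO, -0.97 and -0.28 in Atg7 cKO, -0.77 and 0.51 in double knockout liver, and 0.19 and 0.82 in the direct comparison. Its Atg7 cKO mean of -0.62 was the lowest of the 6 enzymes in that comparison, with a 95% interval of -1.87 to 0.62 (limma, adjusted p = 0.355). With the set of experiments as a term in the fit, which removes the shift shared by experiments 4 to 6, the same value passed (limma, adjusted p = 0.0373). That fit called 7845 of all genes in Atg7 cKO, against 6567 without the term.

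Sqle encodes squalene epoxidase, the first step that adds oxygen. Its log2 ratio was -1.55 in experiment 1, the lowest value of any of the 7 genes in any experiment, and 0.17 in experiment 4. The other values were 0.04 and -0.04 in Atg7 cKO, 0.00 and 0.51 in double knockout liver, and -0.06 and 0.62 in the direct comparison. In experiment 1 both dye orientations were low, at -1.38 and -1.71.

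Lss encodes lanosterol synthase, which closes the sterol rings, and Cyp51 the demethylase that acts on lanosterol. Lss had -0.60 and 0.40 in Nrf2 KO, -0.54 and -0.10 in Atg7 cKO, -0.50 and 0.24 in double knockout liver, and -0.05 and 0.38 in the direct comparison. Cyp51 had -0.76 and -0.02, -0.38 and -0.13, -0.47 and 0.11, and -0.19 and 0.34 in the same comparisons. Both were below 0 in all of experiments 1 to 3 and at or below 0.40 in experiments 4 to 6.

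The gap between the 2 dye orientations of an experiment was smaller than the widest of these differences. Over the 7 genes and 8 experiments it ranged between 0.00 and 0.48 log2 units, with a median of 0.185. The SD of the 2 Nrf2 KO experiments was 1.06 for Hmgcs1, 1.19 for Fdps and 1.21 for Sqle. Srebf2 had the wider dye gaps, 0.29 to 0.48, of which the average over the swap removes the part that is the same in both orientations. The dye swap repeats the hybridisation and not the liver.

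None of the 6 enzymes passed in any comparison at an adjusted p of 0.05 (limma, Benjamini-Hochberg over all genes tested). In Nrf2 KO, 0 of 7 members passed, where 0.012% of 16672 genes did. There 0 had an unadjusted p under 0.05, where 3.69% of genes had one. Against wild type, 0 of 7 passed with both genes deleted, where 37.1% of genes did. In experiments 7 and 8, 0 of 7 passed, where 14.8% of genes did. In each of these, 1 member, Srebf2, had an unadjusted p under 0.05. So did 7910 of 16672 genes in the double knockout and 33.7% of genes in experiments 7 and 8. The interaction asked whether the double knockout ratio differs from the sum of both single knockout log2 ratios. There 0 of 7 passed, where 0.72% of genes did. Of the 7, only Srebf2 had an unadjusted p under 0.05, as did 2410 of 16672 genes. The intervals were wide: the 95% interval of Sqle in Nrf2 KO ran from 0.310 to 1.24 times wild type, and that of Hmgcs1 in the double knockout from 0.454 to 1.78 times. A p that misses the threshold therefore does not show that the enzymes were at wild-type level.

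Srebf2 was the 1 member that passed in a comparison: it fell in Atg7 cKO. Its log2 ratio was -0.39 in experiment 2 and -0.70 in experiment 5, a mean of -0.55 ± 0.22 (SD, n = 2; SE of the fit 0.0828), or 0.685 times wild type with a 95% interval of 0.592 to 0.792 (limma, adjusted p = 0.00651). Both experiments were below 0. The count of 1 of 7 members in Atg7 cKO stands against 39.4% of all genes called in either direction and 16.2% called lower, so the share is not above the background of that comparison.

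In the double knockout Srebf2 had -0.17 and -0.26, a mean of -0.21 (limma, adjusted p = 0.101), and in Nrf2 KO -0.10 and -0.11. In the direct comparison, double knockout over Atg7 cKO, it had 0.21 and 0.45, a mean of 0.33 with a 95% interval of 0.04 to 0.62 (limma, adjusted p = 0.109). Through wild type, from other arrays, the same contrast was also 0.33 (limma, adjusted p = 0.189). Neither estimate passed, so a difference in Srebf2 between double knockout and Atg7 cKO livers was not established. The interaction was 0.44 (95% interval 0.08 to 0.80, limma, adjusted p = 0.271).

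The size of the Srebf2 change depended on the scaling. With each array centred on its median and no loess, the median over all genes moved to 0.21 in Atg7 cKO, and Srebf2 was at -0.09 (limma, adjusted p = 0.594), which is -0.30 relative to that median. With the value table's processed log ratios it was -0.66 against an all-gene median of -0.08 (limma, adjusted p = 0.0111). The same choice moved the split of all calls: 58.9% of the genes called in Atg7 cKO were higher in the loess setting, 48.7% with the processed log ratios and 90.7% with median centring. In the double knockout these shares were 57.1%, 46.6% and 85.7%. Leaving out each experiment in turn kept the Srebf2 call in Atg7 cKO, at -0.39 without experiment 5 and -0.70 without experiment 2, with adjusted p of 0.00581 to 0.0301.

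Markers of other cell types moved in the same comparison. In Atg7 cKO, 6 of 6 macrophage markers (Marco, Clec4f, Adgre1, Cd68, Trem2 and Cd5l) rose, with a median log2 ratio of 2.18 (range 1.18 to 3.34). Of the hepatocyte markers, 5 of 6 fell, with a median of -1.31 (range -2.12 to -0.40). Neutrophil markers rose in 2 of 2 tested (median 0.99), stellate in 3 of 5 (0.31) and lymphocyte in 2 of 4 (0.12). Cholangiocyte (0.14) and endothelial (0.07) markers rose in 1 of 4 each. Over all genes, 3866 of 16672 were called higher and 16.2% lower. With both genes deleted, 6 of 6 macrophage markers rose (median 1.85) and 4 of 6 hepatocyte markers fell (median -0.93). Neutrophil markers rose in 2 of 2 (median 2.6), stellate in 3 of 5 (0.65) and cholangiocyte (0.03) and lymphocyte (0.13) in 1 of 4 each. Endothelial markers fell in 2 of 4 (-0.18). Over all genes, 3534 of 16672 were called higher and 15.9% lower. In Nrf2 KO none of these markers passed, where 0.012% of all genes did. Their part in the Srebf2 ratio was not tested. In whole liver RNA, fewer cells of a type and less RNA per cell cannot be told apart.

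The probes of a gene did not all give the same size. In Atg7 cKO the 3 kept Srebf2 probes had -0.55, -0.35 and -0.17, with limma adjusted p over all kept probes of 0.00645, 0.00934 and 0.074. Their mean log2 intensities were 9.46, 7.55 and 6.92, and the part of brightness in these sizes was not tested. One Lss probe, matched to the transcript AK147680, passed in Atg7 cKO at -0.67 (limma, adjusted p over probes = 0.0375), while the other Lss probes had -0.32 and -0.29 and did not. The second Fdps probe, matched to AK077979, had 0.03, -0.06, -0.17, 0.46, -0.84 and -0.17 in experiments 1 to 6, and so did not share the pattern of the bright Fdps probe. Of the Hmgcs1 probes, the 2 dimmer ones had -0.24 and -0.12 in experiment 1, against -0.99 for the brightest. In experiment 4 they had 0.29 and 0.06, against 0.50. The 3 Cyp51 probes had -0.76, -0.67 and -0.52 in experiment 1 and values of -0.02, 0.01 and 0.05 in experiment 4.

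The difference between the sets of experiments was estimated as a term of its own, experiments 4 to 6 minus experiments 1 to 3, in a fit with 3 group means. Fdps had 1.22 (95% interval 0.71 to 1.73), Lss 0.72 (0.41 to 1.04) and Cyp51 0.52 (0.25 to 0.80). Hmgcs1 had 0.87 (0.23 to 1.52), Idi1 0.58 (0.04 to 1.11), Sqle 0.71 (-0.20 to 1.63) and Srebf2 -0.14 (-0.34 to 0.07). Adjusted over all genes, none passed: limma's adjusted p was 0.143 for Fdps, 0.144 for Lss, 0.165 for Cyp51, 0.223 for Hmgcs1, 0.278 for Idi1, 0.397 for Sqle and 0.446 for Srebf2, and 0.006% of all genes passed. At an unadjusted p under 0.05, 5 of 7 members were higher in experiments 4 to 6, where 8.6% of all genes were. For 5 of 7 members, Hmgcs1, Idi1, Fdps, Lss and Cyp51, all of experiments 4 to 6 lay above all of experiments 1 to 3, where 4.92% of genes did.

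Those members share their arrays, and the 3 experiments of a set may share a wild-type RNA, since the labels do not say whether the extract was the same. The wild-type channels were therefore read on their own. Fdps had log2 signals of 10.58 (Nrf2 KO), 10.85 (Atg7 cKO) and 10.77 (double knockout) in the knockout channels of experiments 1 to 3, against 11.66, 11.82 and 11.54 in their wild-type channels. In experiments 4 to 6 it had 11.14, 10.43 and 11.37 in the knockout channels, against 10.53, 10.70 and 10.85 in the wild-type channels. The wild-type signal of Fdps was thus 0.98 log2 units lower in experiments 4 to 6 than in experiments 1 to 3, and the knockout signal 0.25 higher, so most of the difference lay in wild type.

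Hmgcs1, Idi1, Sqle and Lss differed more in the knockout channels. In experiments 4 to 6 their mean knockout signal was higher than in experiments 1 to 3 by 0.58 for Hmgcs1, 0.47 for Idi1, 0.71 for Sqle and 0.53 for Lss, against wild-type differences of -0.30, -0.11, -0.01 and -0.19. Cyp51 had 0.20 in the knockout and -0.33 in the wild-type channels. The Sqle knockout mean rests on experiment 1, where the Nrf2 KO channel was at 8.51, while the other 5 knockout channels lay between 9.97 and 10.48 and the 6 wild-type channels between 9.95 and 10.08. For Srebf2 both kinds of channel were higher in experiments 4 to 6, by 0.20 in the knockouts and 0.34 in wild type.

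**Figure D2:**
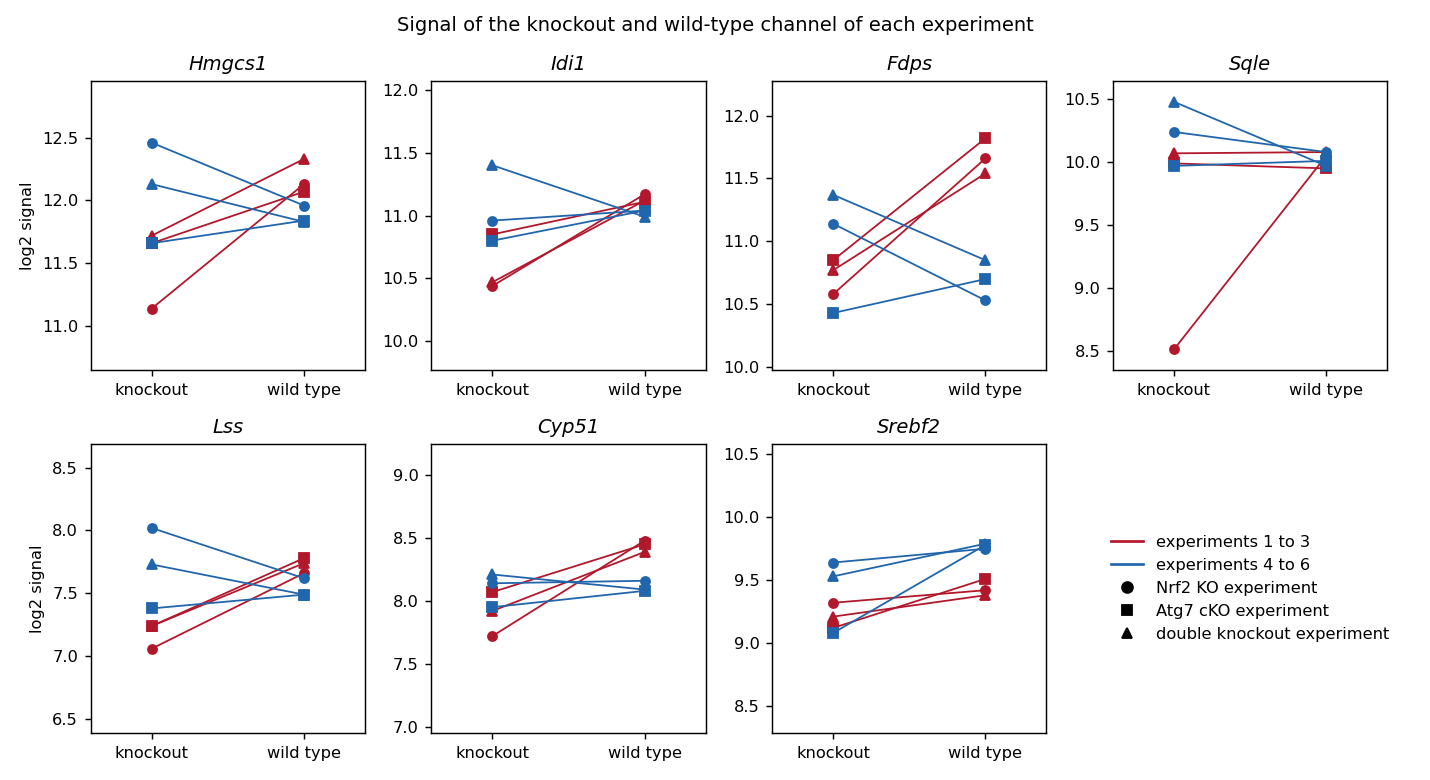
Log2 signal (vertical axis, spanning the same number of units in each panel) in the knockout channel (left) and the wild-type channel (right) of each of experiments 1 to 6, joined by a line, after normalisation. Red lines are experiments 1 to 3 and blue lines 4 to 6, and symbols give the knockout. For Fdps the wild-type points fall into 2 levels, 11.54 to 11.82 and 10.53 to 10.85, and for Sqle a single knockout point, at 8.51, lies apart.

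Within a set, the order of the genotypes was alike for several enzymes. In experiments 4 to 6 the Atg7 cKO ratio was the lowest of the 3 for all 6 enzymes, between -0.28 and -0.04, and the double knockout ratios lay between 0.11 and 0.51. In experiments 1 to 3 the Nrf2 KO ratio was the lowest of the 3 for all 6 enzymes, between -1.55 and -0.60. These are single experiments and carry no test. With experiment 1 left out, the Nrf2 KO ratio rests on experiment 4 alone and was 0.50 for Hmgcs1, 0.61 for Fdps, 0.17 for Sqle and 0.40 for Lss, each opposite in sign to the mean of both experiments. With experiment 3 left out, the double knockout ratio of Hmgcs1, Idi1, Fdps, Lss and Cyp51 likewise turned positive, between 0.11 and 0.51.

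The rest of the sterol pathway was read from a list of 12 further enzymes, which like the other lists does not hold every gene of its kind. In Atg7 cKO, 3 of 12 fell and 0 rose, with a list median of -0.41, where 16.2% of all genes were called lower and 39.4% in either direction. These were Tm7sf2, a sterol reductase (-1.41 and -2.04), Ebp, a sterol isomerase (-1.25 and -1.48), and Sc5d, a sterol desaturase (-1.16 and -1.01), with limma adjusted p of 0.00284, 0.0011 and 0.0386. With both genes deleted, Tm7sf2 (-1.39 and -0.95, adjusted p = 0.00881) and Ebp (-1.05 and -0.74, adjusted p = 0.00263) fell, 2 of 12, with a list median of -0.43, where 15.9% of all genes were called lower. No gene of the 12 passed in Nrf2 KO (median -0.14) or in experiments 7 and 8 (median 0.03). The Sc5d call was lost with median centring, without the filter on dim probes and with slide as a block (limma, adjusted p of 0.0546, 0.0636 and 0.066), and without experiment 2 or 5. Tm7sf2 in the double knockout lost its call without experiment 3 (adjusted p = 0.0821). Of the other enzymes after lanosterol, Msmo1 (-0.86), Nsdhl (-0.45), Hsd17b7 (-0.08) and Dhcr7 (0.02) did not pass in Atg7 cKO (limma, adjusted p of 0.171, 0.155, 0.797 and 0.959).

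Over the 8 experiments the median of these 12 enzymes was -0.54, -0.49 and -0.81 in experiments 1 to 3, 0.17, -0.50 and -0.18 in experiments 4 to 6, and -0.13 and 0.40 in experiments 7 and 8. The set term was 0.52 at the median of the list. An unadjusted p under 0.05 was found for 8 of 12, all higher in experiments 4 to 6, where 8.6% of all genes were. The 12 genes share their arrays, as the members do. None of the 12 passed after adjustment. Tm7sf2 (0.07) and Ebp (0.06) had set terms near 0, and Sc5d had 0.68 (limma, adjusted p = 0.213).

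**Figure D3:**
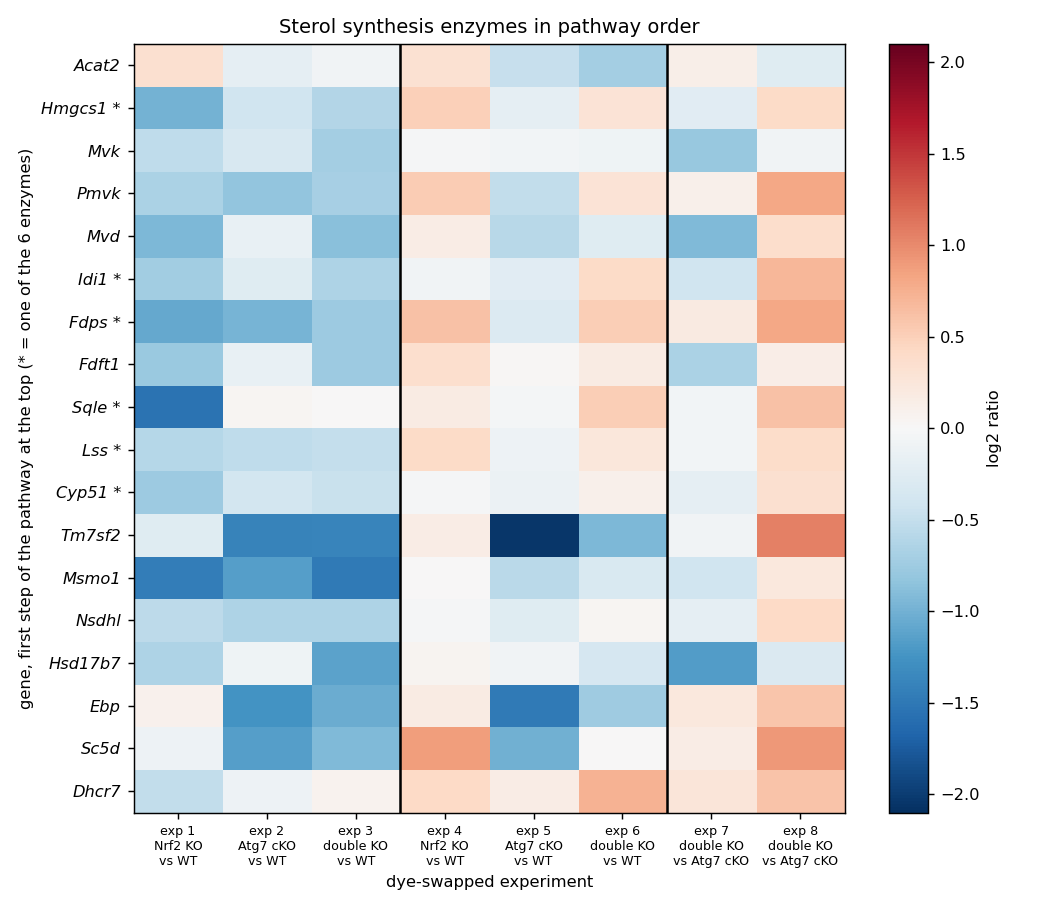
Log2 ratio (colour, blue below 0 and red above 0) of 18 sterol synthesis enzymes in pathway order from top to bottom, in each of the 8 experiments from left to right, with an asterisk at the 6 enzymes described gene by gene. Black lines separate experiments 1 to 3, 4 to 6 and 7 and 8. Experiments 7 and 8 show deposited ratios, processed otherwise than those of experiments 1 to 6. Columns 1 to 3 are mostly blue, whereas Tm7sf2 and Ebp are blue in columns 2, 3, 5 and 6, in which Atg7 was targeted.

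Among genes that sense sterols and process SREBP, 4 of 8 tested fell and 1 rose in Atg7 cKO (list median -0.38), where 16.2% of all genes were called lower and 39.4% in either direction. In the same livers 5 of 6 hepatocyte markers fell, with a median of -1.31, and their part in these ratios was not tested. Stard4, a cholesterol carrier protein, had -1.59 and -1.40 (limma, adjusted p = 0.0044), Insig1, which retains SREBP in the endoplasmic reticulum, -1.04 in both experiments (adjusted p = 0.00797), and Srebf1, the related SREBP gene of fatty acid synthesis, -0.57 and -1.44 (adjusted p = 0.0329). Scap, the escort protein of SREBP, had -0.86 and -0.73 (adjusted p = 0.0143). Erlin2, which takes part in the breakdown of sterol-regulated membrane proteins, had 0.25 and 0.29 (adjusted p = 0.0102). With median centring the calls of Srebf1 (adjusted p = 0.213) and Scap (adjusted p = 0.0511) were lost, and with the processed log ratios that of Erlin2 (adjusted p = 0.13). Insig1 and Scap also lost theirs without experiment 2 or 5, Srebf1 without experiment 3, 5 or 6 and Erlin2 without experiment 5.

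With both genes deleted, 3 of 8 of these genes fell and 0 rose (median -0.12), where 15.9% of all genes were called lower. They were Stard4 (-1.79 and -1.25, limma adjusted p = 0.00442), Scap (-0.85 and -0.34, adjusted p = 0.0349) and Insig1 (-0.78 and -0.37, adjusted p = 0.0495). The Insig1 call was lost with median centring (adjusted p = 0.135) and the Scap call without the filter on dim probes (adjusted p = 0.0555), and each was lost when single experiments were left out, Insig1 without 2, 3, 5 or 6 and Scap without 2, 3 or 5. None of the 8 passed in Nrf2 KO (median 0.08) or in experiments 7 and 8 (median 0.12).

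Genes of sterol efflux, esterification and the oxysterol receptors moved both ways. In Atg7 cKO, 2 of 12 rose and 1 fell (median 0.01), a share called that is below the 39.4% over all genes. Abcg1, a sterol exporter, had 1.30 and 1.69 (limma, adjusted p = 0.00121), Soat1, which esterifies cholesterol, 0.85 and 1.41 (adjusted p = 0.00312), and Lcat, the plasma enzyme that esterifies cholesterol, -0.30 and -0.52 (adjusted p = 0.0441). The Lcat call was lost with median centring, where its ratio was 0.05. With both genes deleted, Abcg1 (1.63 and 1.48, adjusted p = 0.00103), Soat1 (1.42 and 1.50, adjusted p = 0.00164) and the exporter Abca1 (1.02 and 0.29, adjusted p = 0.0482) rose and the phospholipid enzyme Lpcat3 (-0.65 and -0.47, adjusted p = 0.00373) fell, 4 of 12 with a list median of 0.05, where 37.1% of all genes were called. Abcg1 and Soat1 are also known from macrophages, whose markers rose in the same livers as given above, and the part of those cells in these ratios was not tested. None of the 12 passed in Nrf2 KO (median 0.11) or in experiments 7 and 8 (median 0.13). Abca1 lost its call with the processed log ratios (adjusted p = 0.0555) and without any one of experiments 1 to 5, Lpcat3 with median centring (adjusted p = 0.0659), and Lcat without experiment 1, 2, 4 or 5.

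**Figure D4:**
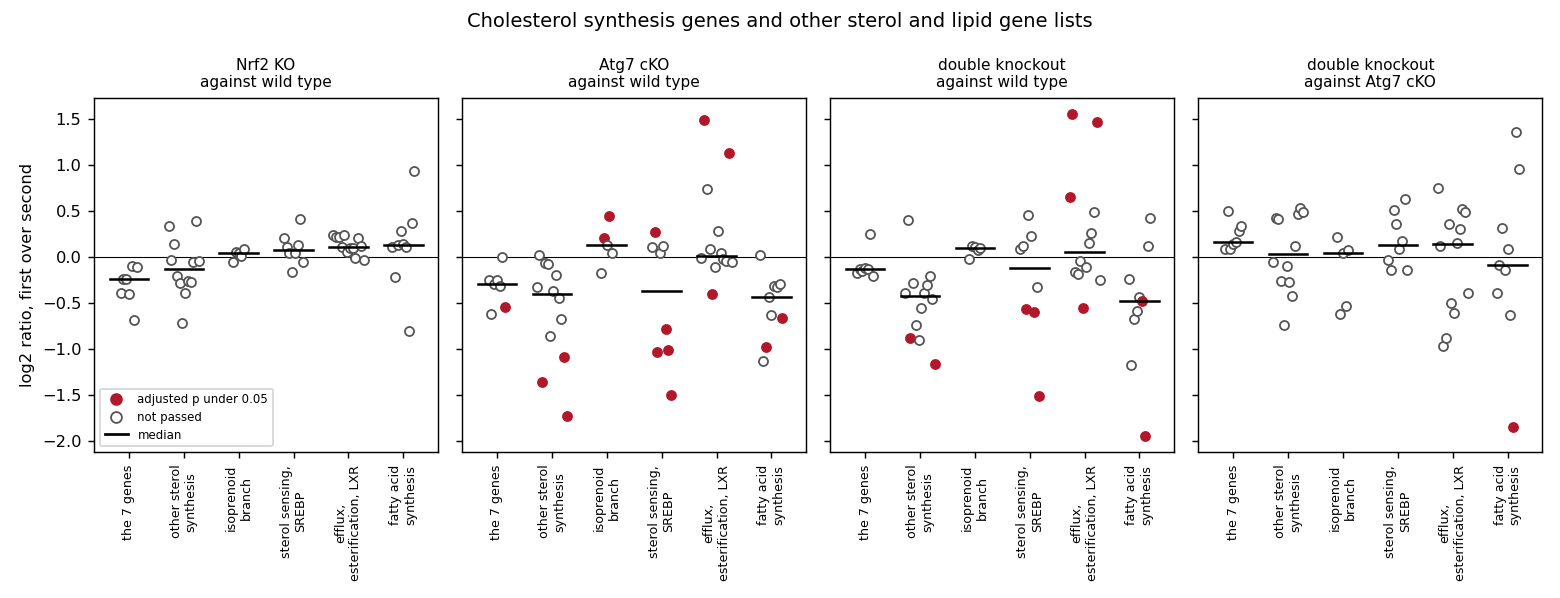
Log2 ratio (vertical axis) of the 7 genes and of each gene in 5 lists (horizontal axis), 1 panel for each of the 4 comparisons. Filled red points passed at an adjusted p under 0.05, open points did not, and bars are medians. The panel of the direct comparison uses deposited ratios, processed otherwise than those of the other panels. In Atg7 cKO the medians were -0.30 for the 7 genes, -0.41 for other sterol synthesis, -0.38 for sterol sensing and 0.01 for efflux and esterification, while no point is filled in Nrf2 KO.

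The isoprenoid branch uses the product of Fdps for other lipids. Of its 5 tested genes, 2 rose in Atg7 cKO (median 0.13), where 3866 of 16672 genes were called higher and 39.4% in either direction. They were Pdss1, of ubiquinone synthesis (0.48 and 0.39, limma adjusted p = 0.00461), and Fntb, a farnesyltransferase subunit (0.19 and 0.21, adjusted p = 0.025). The Fntb probe was dim, well above background in 8 of 24 channels. In the other 3 comparisons 0 of 5 passed, with medians of 0.04 (Nrf2 KO), 0.09 (double knockout) and 0.04 (direct). Of 9 genes of fatty acid synthesis, 2 fell in Atg7 cKO (median -0.44), against 16.2% of all genes, Acly (-0.95 and -1.01, adjusted p = 0.0379) and Scd1 (-0.37 and -0.96, adjusted p = 0.0435). With both genes deleted, Me1 (-2.18 and -1.72, adjusted p = 0.00349) and Gpam (-0.58 and -0.39, adjusted p = 0.0227) fell (2 of 9, median -0.48), against 15.9% of all genes. Me1, which supplies NADPH and is a known Nrf2 target, was the 1 of 9 that passed in the direct comparison, with -2.16 and -1.54 (adjusted p = 0.0149), where the list median was -0.09. That call was lost through wild type (adjusted p = 0.0643), with experiments 7 and 8 alone (adjusted p = 0.0761) and without experiment 7. The calls of Acly, Scd1 and Gpam were lost with median centring (adjusted p of 0.0811, 0.246 and 0.0544), and that of Fntb with slide as a block (adjusted p = 0.0809), and all 4 when single experiments were left out. In Nrf2 KO 0 of 9 passed, with a median of 0.13.

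An unadjusted p under 0.05 was more common than a call in experiments 7 and 8. There, 1 of 12 other sterol enzymes, 2 of 5 isoprenoid genes, 0 of 8 sensing genes, 8 of 12 efflux and esterification genes and 2 of 9 fatty acid genes had one (limma), where 33.7% of all genes did. In Nrf2 KO the counts were 0 of 12, 0 of 5, 0 of 8, 0 of 12 and 2 of 9 in the same lists, where 3.69% of all genes had one.

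The gene whose ratios were most like the mean profile of the 7 genes was another sterol enzyme. Msmo1, the methylsterol oxidase that acts after Cyp51, had a Pearson correlation of 0.961 with that mean over the 8 experiments of the value table, the highest of 9644 genes with a range of at least 1. The next were Slc49a4 (0.948), CJ042244 (0.945), Msgn1 (0.942) and Sit1 (0.934). Msmo1 had -1.47, -1.10 and -1.42 in experiments 1 to 3, -0.02, -0.59 and -0.31 in experiments 4 to 6, and -0.42 and 0.22 in experiments 7 and 8. Among the members themselves, correlations between pairs of the 6 enzymes ran from 0.661 to 0.974, and those between Srebf2 and an enzyme from 0.144 to 0.512. The points share arrays, and wild-type RNA may be shared within a set, so these values are descriptions.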

How the data were processed

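Scanner files of experiments 1 to 6 (12 arrays) held spot and background intensity per the file headers, on mm9 annotation. Their headers name Feature Extraction 9.5.1.1, and the notes of the submitters name 9.5.1. The deposited value table held log10 ratios of Cy5 over Cy3, equal to those of the scanner files within 0.005, and was the source for experiments 7 and 8. Median signals lay between 41.82 and 55.63 against backgrounds of 34.5 to 36.5, and the number of arrays limits the precision.

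Intensities were corrected with normexp (offset 50) and loess in limma 3.58.1 (R 4.3.3), turned to log2 of knockout over partner and averaged over the dye swap, without control spots or outlier flags. The offset shrinks ratios of dim genes. Channel signals were scaled between arrays by Aquantile. One limma model with 3 group means covered experiments 1 to 6. A second, with 4 group means over all 8 experiments, used the log2 form of the deposited log10 ratios and gave the values of experiments 7 and 8. The Benjamini-Hochberg adjustment ran over 16672 and 16674 genes, with a threshold of 0.05. The fits were tested on simulated data. Named are all members, every gene of a list that passed (where up to 8 did), the 5 genes most like the members' mean, and the targeted genes. The members and lists were chosen with earlier results of these data known. One enzyme of the sterol list is not reported here and was left out of its counts and medians. Alternatives were the processed log ratios, offset 16, median centring, other filters on dim probes, slide or set of experiments as a block, arrays apart, other probe rules and leaving out each experiment. Promoter sequences are RefSeq's (GRCm38.p6).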

Additional observations from a re-analysis of the deposited data

How the results depend on the processing

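Of 644 member values under the alternatives, 596 kept their direction and their side of the threshold. Of the rest, 42 turned their sign, 5 gained a call and 1, Srebf2 in Atg7 cKO, lost it. The 596 include many estimates that could not move. In the 4 comparisons, leaving out an experiment of another comparison, the set as a block and arrays apart change the spread and not the estimate. Srebf2 in Atg7 cKO, for example, stayed at -0.55 without experiment 1, 3, 4 or 6. The Srebf2 call held in the other alternatives run, with limma adjusted p between 3.39e-05 and 0.0301. The number of members called in Atg7 cKO, 1 as reported, was 0 with median centring and 2 with the set of experiments as a block (Fdps added, limma adjusted p = 0.0373). Of all genes, 6567 of 16672 (39.4%) were called as reported, 7654 with median centring and 7845 with the set of experiments as a block. In the double knockout it was 0 as reported and 1 (Srebf2, adjusted p = 0.0283) with arrays apart, and 0 to 1 when experiments were left out in turn, being 1 without experiment 2 or 5 (adjusted p = 0.0327). In experiments 7 and 8 it was 0 as reported and 1 (Srebf2, limma adjusted p = 0.0129) with arrays apart. Arrays apart also called more of all genes: 7427 in the double knockout, against 6189 as reported, and 4280 in experiments 7 and 8, against 2465. Signs turned as follows, each among values that passed in neither setting unless said, and the cause was not tested. In Nrf2 KO, Srebf2 was at 0.02 with median centring, Fdps at 0.09 and Lss at 0.10 with slide as a block, and Fdps at 0.01 with the mean of all kept probes. In Atg7 cKO, Sqle was at -0.05 with the processed log ratios and -0.01 with offset 16. Median centring there gave Hmgcs1 0.10, Idi1 0.18, Lss 0.06, Cyp51 0.18 and Lcat, called as reported, 0.05. It moved the all-gene median to 0.21, but genes did not all move by that amount: Hmgcs1 was at -0.30 as reported. Relative to the all-gene median, the median of the enzymes was -0.28 as reported and -0.07 with median centring. In the double knockout, median centring gave Idi1 0.09, Fdps 0.07, Lss 0.16, Cyp51 0.13 and Srebf2 0.08 against an all-gene median of 0.14, and slide as a block gave Sqle -0.02. In experiments 7 and 8 the mean of all kept probes gave Hmgcs1 -0.09 and Cyp51 -0.03. With slide as a block the interaction was -0.19 for Hmgcs1, -0.06 for Fdps and -0.19 for Lss. Leaving out each experiment in turn, which leaves 1 experiment in a group whose spread is then taken from the others, gave in Nrf2 KO -0.99 to 0.50 for Hmgcs1, -1.08 to 0.61 for Fdps, -1.55 to 0.17 for Sqle and -0.60 to 0.40 for Lss. In Atg7 cKO it gave -0.04 to 0.04 for Sqle. In the double knockout it gave -0.61 to 0.29 for Hmgcs1, -0.65 to 0.41 for Idi1, -0.77 to 0.51 for Fdps, 0.00 to 0.51 for Sqle, -0.50 to 0.24 for Lss and -0.47 to 0.11 for Cyp51. In experiments 7 and 8 it gave -0.24 to 0.40 for Hmgcs1, -0.42 to 0.70 for Idi1, -0.06 to 0.62 for Sqle, -0.05 to 0.38 for Lss and -0.19 to 0.34 for Cyp51. For the interaction it gave -0.36 to 1.14 for Hmgcs1, -0.11 to 1.57 for Fdps and -0.21 to 0.79 for Lss. Of 492 values of named genes in the lists, 410 kept their call, 81 lost it and 1 turned its sign. Here too, many estimates could not move.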
